A study of Mus musculus with 1545 samples.

Results

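The Hox genes are the 39 rows of the count table whose symbol is Hox followed by a cluster letter (a to d) and a number, out of 24378 genes. They fall into 4 clusters, with 11 members in Hoxa, 10 in Hoxb, 9 in Hoxc and 9 in Hoxd, and into paralog groups 1 to 13, which hold the members with the same number. A count was seen for 38 of the 39, and 24 reached 5 counts per 1000000 counts (CPM) over all cells, against 11228 of all genes. Measurements came from 1545 single neurons of the mouse spinal dorsal horn, where sensory fibres from the skin end. The wild-type group was 637 cells of the strain C57bl6, aged 18 to 28 days. A further 537 cells, aged 17 to 24 days, came from the line vGat-Cre-tdTomato, where Cre under the gene of the vesicular GABA transporter turns on a red mark in inhibitory neurons, and 371 cells, aged 23 to 26 days, from the line vGlut2-eGFP, whose green fluorescence follows the vesicular glutamate transporter gene of excitatory neurons. No treatment is named for any group. The sources used here do not say how fluorescent cells were picked or which spinal segments were dissected.

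Hox genes encode homeodomain transcription factors that lie in a row within each cluster. Genes at the 3′ end of a cluster (low numbers) are switched on earlier in the embryo and nearer to the hindbrain, and those at the 5′ end later and nearer to the tail, so that the set of groups in use records position along the body axis. In the spinal cord, groups 4 to 8 are mainly known from the neck and forelimb levels, groups 8 and 9 from the trunk, and groups 10 to 13 from the lumbar to tail levels. In motor neurons these proteins set which muscle groups a cell innervates, and in the dorsal horn loss of Hoxb8 in mice disturbs the layering of neurons and the response to heat.

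Counts are of unique molecules (UMIs), 1 per captured RNA molecule, and were therefore not divided by transcript length. The unit of every test was the animal set, the sum of all cells alike in line, age label and sex label, of which there were 17 (10 in wild type, 3 in the vGat and 4 in the vGlut2 line). The labels name no animals, so a set may hold several mice and p-values measure the spread between sets. The sex labels are in doubt: of 16 sets labelled male, 10 held RNA of Xist, the gene that silences an X chromosome in females, at 807.2 to 1829.9 CPM, and 6 at no more than 0.734 CPM. Set levels are shown for sets with at least 10 cells. Sets held 58614 to 2610563 UMIs, and no capture run held cells of more than 1 line (0 of 82 runs), and the effects of line and run cannot be told apart. The summed level of 5 neuron markers was 2691 to 6585 CPM in the sets, while 8 forebrain and midbrain factors (Otx2 among them) reached at most 12.6 CPM, 4 motor neuron markers at most 38.6 CPM and 4 markers of ganglion sensory neurons at most 8.67 CPM. The defining motor neuron factor Mnx1 had 0 counts. Oligodendrocyte RNA moved with the line: the 8 marker genes summed to 16422 to 45864 CPM in the wild-type sets, 1306 to 4236 CPM in the vGat sets, and 76.01, 76.5, 1919 and 35953 CPM in the 23-day, 24-day, 25-day and 26-day vGlut2 sets. The 26-day vGlut2 set, with 17 cells of which 5 carry an inhibitory label, stood apart from its line in this, and results of that line are given with and without it.

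Hox RNA was present in nearly every neuron, with the middle of the clusters most abundant. All members together gave 20718 UMIs, a level of 1395 CPM, with a median of 12 Hox UMIs (0 to 66) and of 7 different members (at most 19) per cell. Only 3 of the 1545 cells had no Hox UMI. Paralog groups 7, 8 and 9 gave 293.6, 273.2 and 271.7 CPM, which were 21.0%, 19.6% and 19.5% of Hox UMIs. From there the level dropped on both sides. Group 6 stood at 104.8 CPM, group 5 at 140 CPM, group 4 at 69.7 CPM, group 3 at 92.8 CPM, group 2 at 42.2 CPM and group 1 at 4.85 CPM. On the 5′ side group 10 stood at 96.5 CPM, and groups 11, 12 and 13 at 2.69, 0.337 and 2.36 CPM. The clusters contributed unequally, with 56.5% of Hox UMIs from Hoxb, 29.2% from Hoxa, 9.98% from Hoxc and 4.34% from Hoxd.

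**Figure D1:**
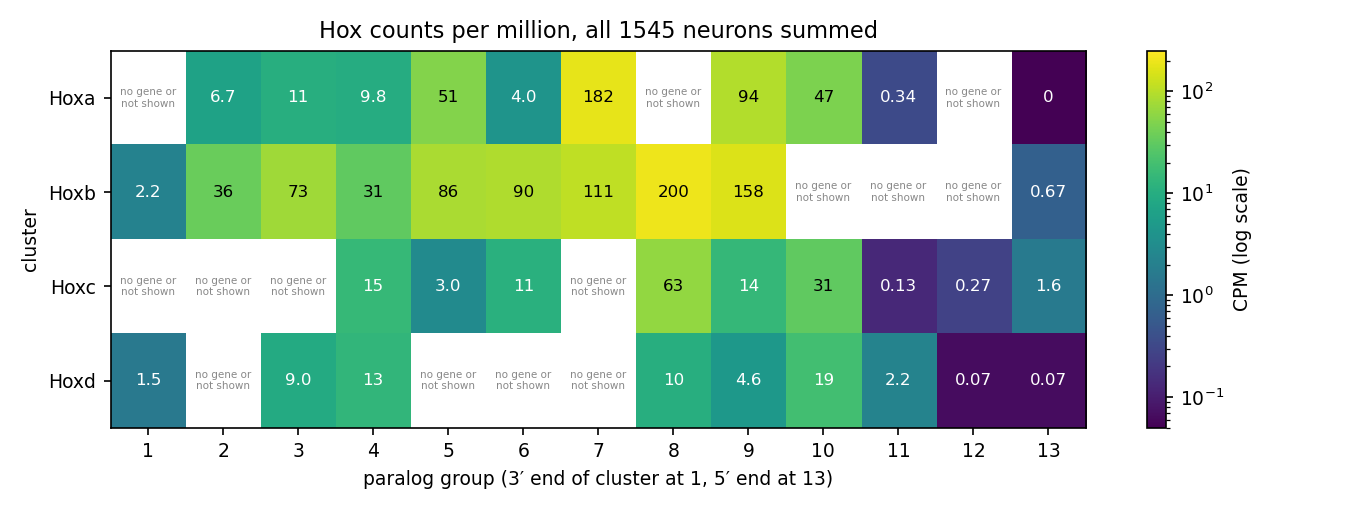
Level of the Hox genes in CPM over all 1545 cells summed, by cluster (rows) and paralog group (columns), with colour on a log scale and cells left empty where there is no gene or no value is shown. The brightest cells are Hoxb8 (200 CPM), Hoxa7 (182.3 CPM) and Hoxb9 (158.1 CPM), and the columns for groups 1 and 11 to 13 are dark wherever a value is shown.

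Hoxb8, the member known for its part in dorsal horn layering, was highest over all cells at 200 CPM and had a UMI in 75.8% of them. Hoxa7, a trunk-level gene of the axial skeleton, followed with 182.3 CPM (69.3% of cells), and Hoxb9, which acts in the rib cage and the trunk spinal cord, with 158.1 CPM (64.9% of cells). The order of these genes was not the same in every line. In wild-type sets Hoxb8 stood at 163.9, 212.02 and 341.5 CPM (lowest, median, highest of 9 sets), Hoxb9 at 148.6, 205.4 and 306.9 CPM and Hoxa7 at 104.9, 140 and 155.8 CPM. In the vGat sets of 17, 18 and 24 days Hoxa7 stood at 182.6, 191.1 and 240 CPM and was above Hoxb8 in all but the 18-day set, where Hoxb8 stood at 204.9 CPM. In wild type the ranges of Hoxb8 and Hoxb9 overlapped, as did those of Hoxb9 and Hoxa7, while Hoxa7 lay below Hoxb8 in each of the 9 sets.

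The promoters of 4 members are printed to show the ends of the range of levels and the member with the most uneven use, Hoxd10. Each is 250 bases before and 50 after the annotated start, from RefSeq on GRCm38.p6, 5′ to 3′ on the strand of the gene, with CG pairs in capitals. Hoxb8 lies at chr11:96281655-96281954 (plus strand), Hoxa7 at chr6:52218524-52218823 (minus strand), Hoxd10 at chr2:74691641-74691940 (plus strand) and Hoxa13, for which no UMI was counted, at chr6:52260831-52261130 (minus strand).
Hoxb8: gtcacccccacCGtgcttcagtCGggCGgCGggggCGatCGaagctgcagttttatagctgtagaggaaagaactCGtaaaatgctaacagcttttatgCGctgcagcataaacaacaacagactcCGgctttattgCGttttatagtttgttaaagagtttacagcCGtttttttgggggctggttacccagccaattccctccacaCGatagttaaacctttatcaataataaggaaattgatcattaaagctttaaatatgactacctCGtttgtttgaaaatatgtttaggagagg
Hoxa7: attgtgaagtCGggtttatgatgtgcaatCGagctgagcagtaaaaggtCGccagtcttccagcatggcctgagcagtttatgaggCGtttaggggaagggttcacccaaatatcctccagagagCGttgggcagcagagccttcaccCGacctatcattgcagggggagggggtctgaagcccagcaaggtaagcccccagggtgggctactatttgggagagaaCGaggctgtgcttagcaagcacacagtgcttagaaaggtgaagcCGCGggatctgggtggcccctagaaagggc
Hoxd10: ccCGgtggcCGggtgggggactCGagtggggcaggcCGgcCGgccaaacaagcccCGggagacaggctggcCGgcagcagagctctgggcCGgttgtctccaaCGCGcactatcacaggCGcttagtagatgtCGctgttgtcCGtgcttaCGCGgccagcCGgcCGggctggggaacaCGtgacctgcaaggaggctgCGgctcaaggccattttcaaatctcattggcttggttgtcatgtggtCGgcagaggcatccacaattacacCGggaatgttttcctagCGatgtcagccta
Hoxa13: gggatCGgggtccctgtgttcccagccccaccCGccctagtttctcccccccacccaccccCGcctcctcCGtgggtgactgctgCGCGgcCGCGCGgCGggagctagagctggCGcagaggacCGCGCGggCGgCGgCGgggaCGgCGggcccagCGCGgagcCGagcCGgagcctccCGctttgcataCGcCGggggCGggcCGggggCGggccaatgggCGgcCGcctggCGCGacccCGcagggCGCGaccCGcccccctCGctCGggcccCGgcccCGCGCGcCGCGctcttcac
These promoters held 13 (Hoxb8), 9 (Hoxa7), 22 (Hoxd10) and 45 (Hoxa13) CG pairs. Over the 24 promoters matched to 22 members the median was 14.5 and the range 4 to 45, against a median of 7 over 32851 promoters of the same length. The TATA motif TATAAA, searched on both strands, was in 4 of 24 member promoters and in 13.6% of all. The Hox and Pbx motif TGATNNAT was in 4 of 24 and in 8.85% of all, and the posterior Hox motif TTTATG in 5 of 24 and in 11.9% of all. Hoxb8 held 2 TATAAA, 1 TGATNNAT and 2 TTTATG matches, Hoxa7 held 2 TTTATG matches, and in Hoxd10 and Hoxa13 no match to the 3 motifs was found (0). A match describes the letters of the window and not a bound site.

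Group 9 and 8 members beside these were Hoxa9 at 94.5 CPM and Hoxc8, which sets motor neuron fate at the forelimb levels, at 62.8 CPM. In Hoxb the genes next to Hoxb8 ran from Hoxb7 (111.3 CPM) over Hoxb6 (89.7 CPM) and Hoxb5 (86.2 CPM) to Hoxb3 (73.2 CPM). Hoxb2, a regulator of hindbrain segments, stood at 35.5 CPM and Hoxb4 at 31.3 CPM. Hoxa5, which patterns the phrenic motor column of the neck, stood at 50.96 CPM. The group 10 genes, known from lumbar motor neurons, were Hoxa10 (46.6 CPM), Hoxc10 (30.8 CPM) and Hoxd10 (19.2 CPM). Hoxc6 and Hoxc9, which oppose each other at the border of forelimb and trunk motor neurons, stood at 11.04 and 14.5 CPM. The remaining members above 5 CPM were Hoxc4 (15.1), Hoxd4 (13.4), Hoxa3 (10.5), Hoxd8 (10.4), Hoxa4 (9.83), Hoxd3 (9.02) and Hoxa2 (6.67 CPM).

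A further 15 members lay under 5 CPM. Those reported ran from Hoxd9 (4.65 CPM) and Hoxa6 (4.04 CPM) over Hoxc5, Hoxd11, Hoxb1, Hoxc13, Hoxd1, Hoxb13 and Hoxa11 to Hoxc12 (4 counts), Hoxc11 (2 counts), Hoxd12 (1 count) and Hoxd13 (1 count). Hoxa13, a gene of the limb tip and the tail end, had 0 counts, which allows a share of up to 0.238% of cells with a UMI (exact binomial, counting error only). Among other transcripts of the clusters, Mira, a noncoding RNA beside Hoxa6 and Hoxa7, reached 51.1 CPM with a UMI in 31.5% of cells. Hotair, a noncoding RNA of the Hoxc cluster, had 38 counts, and Hoxa11os 7. In the GENCODE M21 annotation 9 members share exon bases with another gene on the same strand, among them Hoxc10 with Hoxc5 and Hoxd3 with Hoxd4. An antisense gene overlaps 10 members, among them Hoxa7 with Hoxaas3 and Hoxb5 with Hoxb5os. The sources used here do not say whether counting used the strand, so reads of such partners cannot be told apart.

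The clusters also hold miRNA genes that target Hox RNAs, and their mature sequences are shown beside the share of members that match their seeds. Sequences are from RefSeq on GRCm38.p6, with the seed (bases 2 to 8) in capitals. The first pair shares one seed and the second pair another.
mmu-miR-10a-5p: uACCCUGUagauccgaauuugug
mmu-miR-10b-5p: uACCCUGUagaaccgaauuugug
mmu-miR-196a-5p: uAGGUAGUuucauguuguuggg
mmu-miR-196b-5p: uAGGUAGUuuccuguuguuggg
Their genes lie at chr11:96317186-96317208 (miR-10a, Hoxb cluster), chr2:74726074-74726096 (miR-10b, Hoxd cluster), chr11:96265187-96265208 and chr15:102973365-102973386 (miR-196a, Hoxb and Hoxc clusters) and chr6:52230129-52230150 on the minus strand (miR-196b, Hoxa cluster). A match to the miR-196 seed anywhere in a protein-coding transcript, coding part included, was found in 11 of 39 members (28.2%) and in 16.7% of 21877 coding genes. Among those members were Hoxa4, Hoxa5, Hoxa6, Hoxa7, Hoxa9, Hoxb1, Hoxb6, Hoxb7, Hoxb8 and Hoxc8. For miR-10 the share was 7 of 39 members (17.9%) and 20.4% of coding genes. Hoxb8, the most abundant member, carries the known near-complete site for miR-196a at chr11:96284888-96284909 (plus strand, GRCm38). There 21 of 22 bases, in capitals, are the exact complement of the miRNA. The remaining base, a g, faces a U within the seed and was not counted as a match. This site is therefore not the exact seed match for which Hoxb8 is listed above.
Hoxb8 site: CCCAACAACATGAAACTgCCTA
Under the miRNA gene names the table held 18 counts for Mir10a, 20 for Mir196b, and 0 for Mir10b, Mir196a-1 and Mir196a-2. Mir196b shares 85 exon bases with Hoxa9 on the same strand. These counts say nothing of mature miRNA levels.

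Per cell, groups 7 to 9 were each found in about the same share of neurons. After each cell was thinned to 3000 UMIs, group 7 had a UMI in 55.7% of 1545 cells (exact binomial 95% interval 53.1 to 58.2%; 84.3% without thinning), group 8 in 54.2% and group 9 in 51.1% (48.5 to 53.6%; 81.3% without thinning). Group 10 had a UMI in 21.7% (19.7 to 23.8%; 42.7% without thinning). The most 5′ group with a UMI was group 9 in 38.1% of cells, group 10 in 20.9%, group 8 in 19.5% and group 7 in 10.4%, and groups 11 to 13 together were rare, at 0.583%, 0.129% and 0.647%. No Hox UMI was left in 3.82% of thinned cells. A zero at this depth does not show that a cell lacked the RNA. No cell type of the series lies outside the spinal cord, so a background share for free RNA in cells without Hox genes was not measured.

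The wild-type, vGat and vGlut2 cells differed in these shares. Group 9 had a UMI in 59.7% of thinned wild-type cells (55.7 to 63.5%), 48.4% of vGat cells (44.1 to 52.7%) and 40.2% of vGlut2 cells (35.1 to 45.3%). For group 7 the order was the reverse, with 42.7% (38.8 to 46.6%), 62.8% (58.5 to 66.9%) and 67.7% (62.6 to 72.4%). Intervals cover counting error only, and cells of a set are not independent. In thinned cells with a Hoxc10 UMI, Hoxb9 was seen in 50.0% (40.9 to 59.1%), against 34.98% (32.5 to 37.5%) of the other 1421 cells. Hoxd10 was seen in 10.5% of cells with a Hoxc10 UMI (5.70 to 17.3%) against 3.80% (2.87 to 4.93%). Cells that hold these RNAs together come in part from the same types and sets.

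Comparing the classes asks whether inhibitory and excitatory neurons of the same animal sets carry the same Hox genes. In wild type Hoxc10 and Hoxc8 were lower in inhibitory than in excitatory neurons, and no member was higher (0). The comparison took the 7 wild-type sets that held at least 10 inhibitory and 10 excitatory cells, paired by set, with the authors' class labels, which rest on these same cells. Of 16 members that passed the filter on low counts (of 39), 2 were called, against 5.63% of all 8135 genes tested (2.46% called lower and 3.17% higher). The median log2 difference was 0.14 over the members tested and -0.01 over all genes.

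Hoxc10, a lumbar-level gene, stood at 21.3, 51.4 and 75.6 CPM in excitatory cells (lowest, median and highest of 7 sets) and at 8.54, 22.6 and 38.9 CPM in inhibitory cells. The class ranges overlapped, but within sets the inhibitory value was lower in 7 of 7. The log2 difference was -1.21 (SE 0.24, adjusted p = 0.00264 by edgeR's quasi-likelihood test with Benjamini-Hochberg adjustment). Hoxc8 stood at 53.9, 90.95 and 151.2 CPM in excitatory and 22.8, 51.3 and 93.8 CPM in inhibitory cells, with overlapping ranges and a lower inhibitory value in 6 of 7 sets. Its log2 difference was -0.72 (SE 0.21, edgeR adjusted p = 0.0410). Leaving out any 1 set except the 27-day one ended the Hoxc8 call (highest adjusted p = 0.116), while Hoxc10 kept its call in each case (adjusted p from 0.00499 to 0.0188). Among the other alternatives Hoxc10 was tested in 6 and lost its call in 1 (log2 difference -0.67, edgeR adjusted p = 0.224). No member was called lower with capture runs as the unit, or without the excitatory types Glut12 to Glut15 described below. Without the animal set as a block Hoxc8 was not called either (adjusted p = 0.158).

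The other group 10 genes had lower inhibitory values too. Hoxa10 stood at 39.8, 61.9 and 124.9 CPM in excitatory and 19.9, 43.9 and 56.6 CPM in inhibitory cells. Within sets Hoxa10 was lower in inhibitory cells in 6 of 7 (log2 difference -0.75, SE 0.22, edgeR adjusted p = 0.0557). It was not called there, but was called without the 21-day set or the set labelled female (edgeR adjusted p = 0.0397 and 0.0343), without a count filter (0.0443) and when sets with 5 cells per class were let in (0.0229). Hoxd10 did not pass the count filter, with means of 18.4 ± 7.77 CPM in excitatory and 12.2 ± 9.58 CPM in inhibitory cells (SD, n = 7) and a lower inhibitory value in 7 of 7 sets. Group 10 as a sum was 135.6 ± 39.4 CPM in excitatory and 74.7 ± 27.3 CPM in inhibitory cells, lower in inhibitory cells of 7 of 7 sets. The Hoxb cluster lay the other way, with a sum higher in inhibitory cells in 6 of 7 sets, while the Hoxc sum was lower in 7 of 7. Trunk level alone did not mark this direction. The group 9 members Hoxa9 and Hoxc9 were lower in inhibitory cells in 5 of 7 and 6 of 7 sets. Hoxb8 stood at 124.2, 202.6 and 255.4 CPM in excitatory and 198.1, 260.8 and 300 CPM in inhibitory cells (0.39, SE 0.13, edgeR adjusted p = 0.0859), with a call without the set labelled female (0.0451). For Hoxb9 the inhibitory value was higher in 7 of 7 sets (0.38, SE 0.13, edgeR adjusted p = 0.0870), with a call when capture runs were the unit (0.0455).

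**Figure D2:**
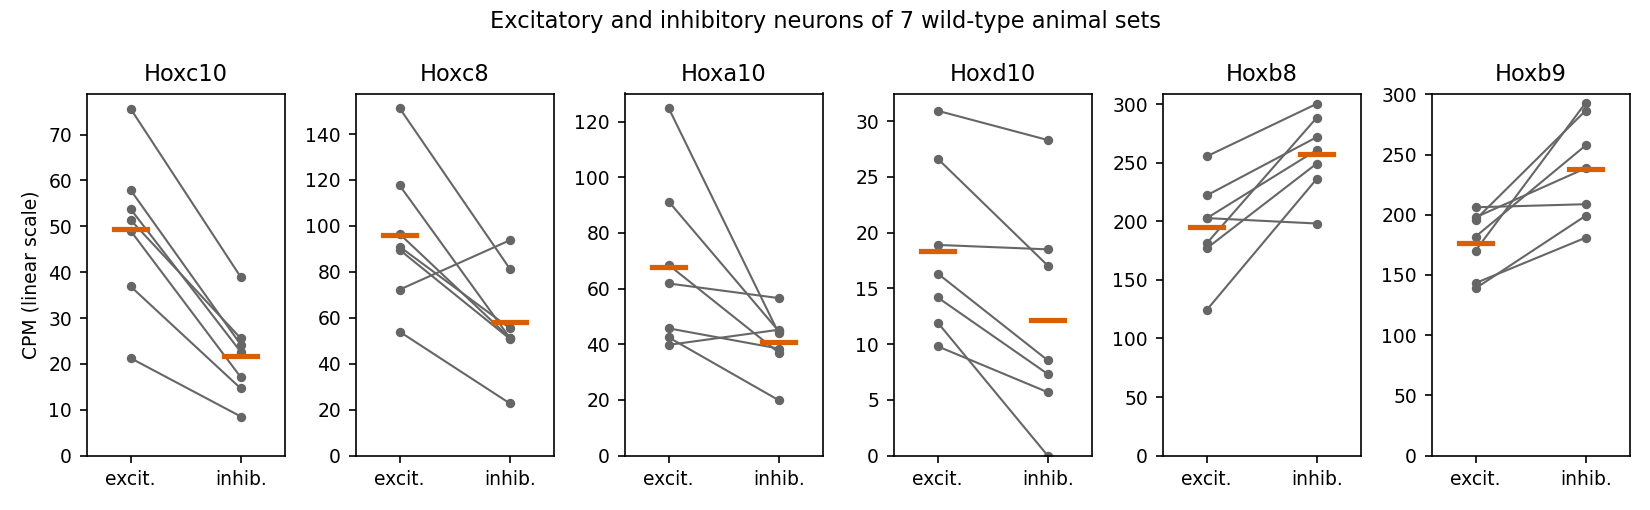
Levels in CPM (linear axes) in excitatory and inhibitory cells of the 7 wild-type sets, 1 line per set. The Hoxc10 and Hoxd10 lines fall from excitatory to inhibitory cells in 7 of 7 sets and the Hoxa10 lines in 6 of 7. The Hoxb9 lines rise in 7 of 7.

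Group 10 levels ranged widely between excitatory types. The authors' labels give 30 types, and over the 26 types with at least 20 cells the coefficient of variation was 55.1% for group 10, 23.9% for group 9 and 22.4% for group 3, whose level over all cells is close to that of group 10. These types were made from the same cells, so their levels are given as a description with exact Poisson intervals and no test. Group 10 was highest in Glut12 (264.996 CPM, 35 cells), Glut15 (204.1 CPM, 22 cells) and Glut5 (203.2 CPM, 24 cells), followed by Glut11 (188.5 CPM, 61 cells), Glut13 (179.5 CPM, 38 cells) and Glut14 (168.9 CPM, 34 cells). It was lowest in Gaba7 (40.9 CPM), Gaba6 (43.4 CPM) and Glut9 (51.1 CPM). In wild-type cells alone Glut5 stood at 286.2 CPM, Glut15 at 210.9 CPM, Gaba6 at 6.06 CPM and Gaba7 at 0 CPM.

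The members of group 10 peaked in different types. Hoxa10 was highest in Glut12 at 134.3 CPM (94.6 to 185.1) and lowest in Glut9 at 7.30 CPM. Hoxc10 was highest in Glut15 at 111.3 CPM (75.1 to 158.96) and lowest in Gaba7 at 5.12 CPM (0.619 to 18.5). Hoxd10 was highest in Glut14 at 80.8 CPM (55.6 to 113.5), where Hoxa10 stood at 34.3 CPM (18.7 to 57.5), and lowest in Glut8 at 5.70 CPM. Outside group 10, Hoxc8 peaked in Glut13 at 174.8 CPM (137.5 to 219.1) with its lowest level in Gaba7 at 17.9 CPM (7.20 to 36.9). Hoxa5, the neck-level gene, ran from 7.24 CPM in Gaba6 to 110.9 CPM in Gaba11. Hoxb8 and Hoxb9 varied less, from 89.1 CPM (Glut15) to 330.9 CPM (Glut5) and from 102.2 CPM (Glut9) to 260 CPM (Glut1). Among members above 5 CPM, Hoxd10 was also the one in fewest cells for its count, with a UMI in 9.64% of cells against 16.6% if its counts were spread evenly over all UMIs.

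**Figure D3:**
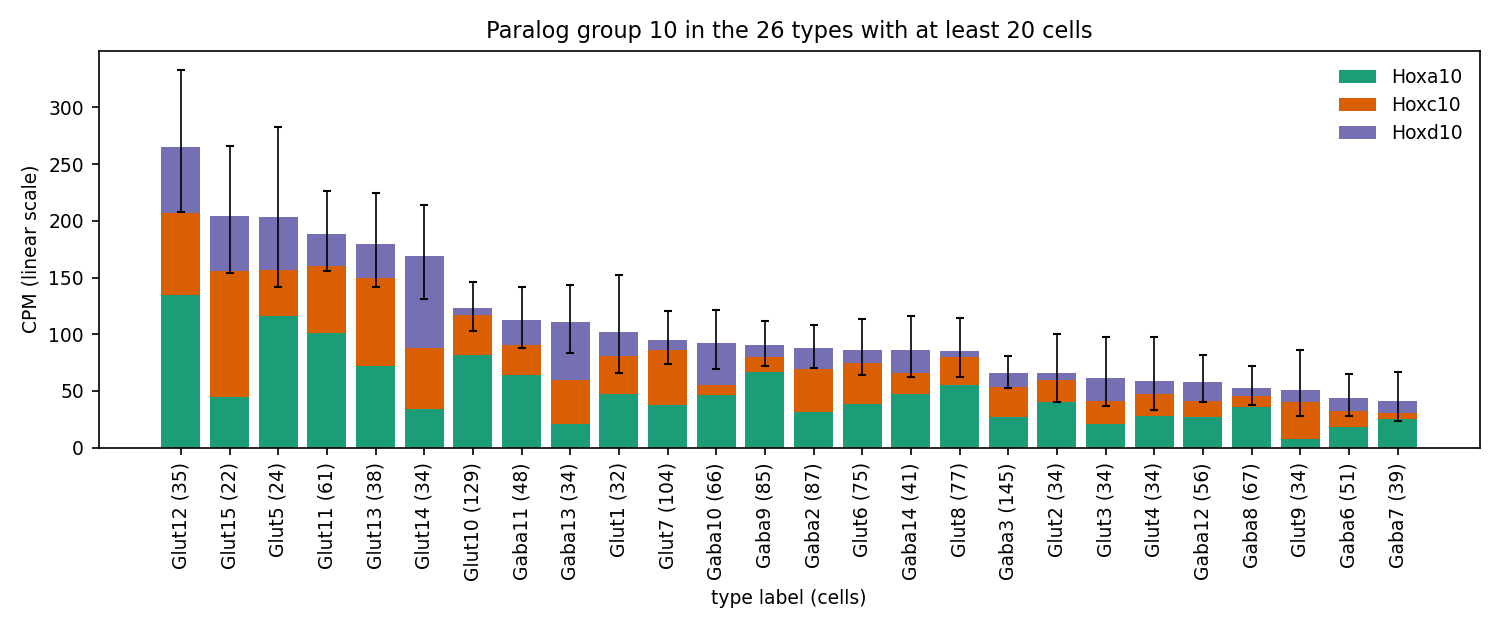
Level of Hoxa10, Hoxc10 and Hoxd10 in CPM, stacked (linear axis from 0), in the 26 types with at least 20 cells, with the number of cells beside each type label. Glut12 stands at 264.996 CPM and Gaba7 at 40.9 CPM, and the 3 genes take different shares of the bars.

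Within animal sets Glut12 to Glut15 were also summed as 1 group, chosen after their levels were seen. In the 10 sets with at least 5 such cells (8 wild type, 2 vGlut2), Hoxd10 stood at 57.03 ± 29.3 CPM in them and 11.9 ± 9.03 CPM in the other excitatory cells (SD, n = 10), higher in 10 of 10 sets. Hoxc10 stood at 79.1 ± 35.8 against 37.5 ± 13.0 CPM (9 of 10 sets) and Hoxc8 at 147.5 ± 64.4 against 75.98 ± 39.2 CPM (8 of 10 sets). Hoxb6 and Hoxa7 lay the other way, at 47.9 ± 22.3 against 83.5 ± 17.5 CPM and 136.1 ± 91.8 against 178.999 ± 59.01 CPM, each lower in all but 1 of the 10 sets. Glut5 and Glut11, which were not in this group, had more group 10 RNA than Glut13 and Glut14.

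Both reporter lines were then set against wild-type cells of the same class. Hoxb9 was lower in each, while Hoxa7 was higher in each, and the other members called differed. The plot of paralog groups shows the same over all cells. Group 7 stood at 173.1, 204.3 and 298.3 CPM in the wild-type sets (lowest, median and highest of 9), at 308.3, 298.8 and 372.9 CPM in the vGat sets of 17, 18 and 24 days, and at 458, 401.9, 452.5 and 251.4 CPM in the vGlut2 sets of 23, 24, 25 and 26 days. Only the 26-day vGlut2 set lay within the wild-type range. Group 9 stood at 265.8, 337.8 and 440.9 CPM in wild type, at 225.3, 222.6 and 234.2 CPM in the vGat sets and at 188.9, 248.8, 238.3 and 138.3 CPM in the vGlut2 sets, with no overlap with wild type. The sum of all members spanned 1150 to 2023 CPM in wild type, 1226 to 1356 CPM in vGat and 1062 to 1592 CPM in vGlut2, so the lines overlapped in total Hox RNA.

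**Figure D4:**
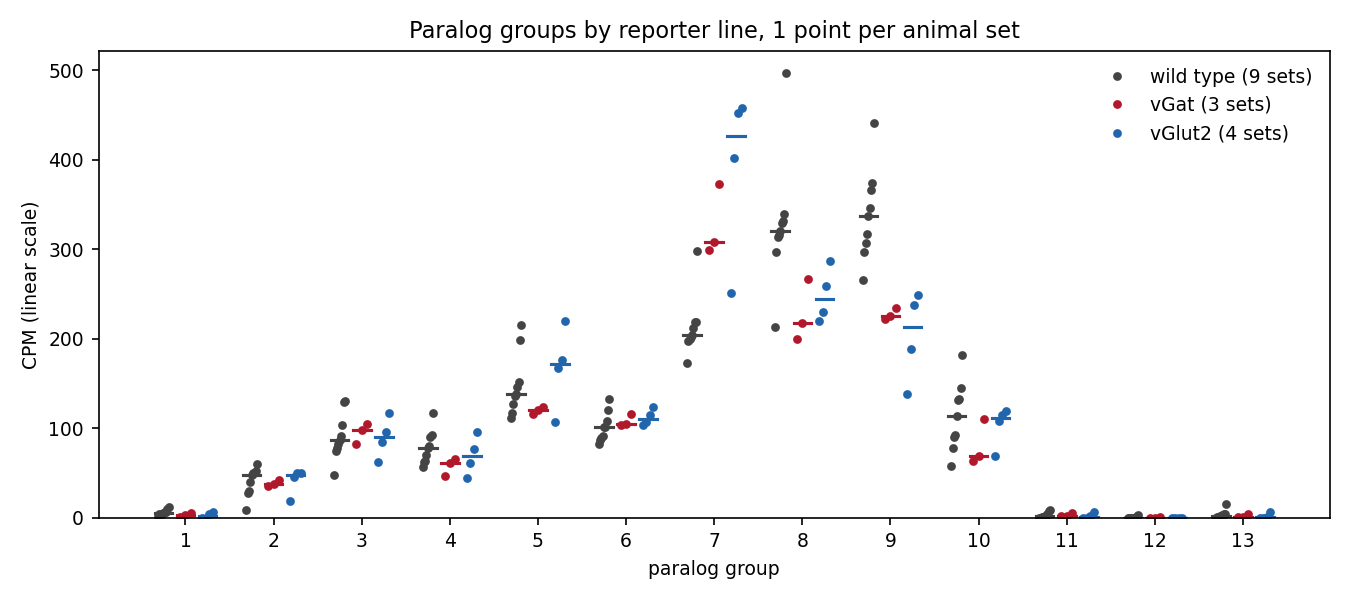
Level of each paralog group in CPM (linear axis) over all cells of an animal set, 1 point per set with at least 10 cells, by line. Group 7 is higher in vGat and most vGlut2 sets (251.4 to 458 CPM) than in most wild-type sets (173.1 to 298.3 CPM), group 9 is lower (138.3 to 248.8 against 265.8 to 440.9 CPM), and group 10 overlaps.

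Inhibitory cells of the vGat line (3 sets) were compared with inhibitory wild-type cells (7 sets). Of 15 members tested, 4 were lower and 1 higher in the vGat line, against 21.3% of all 7687 genes called (12.9% lower, 8.39% higher). The median log2 difference was -0.30 over the members and 0.03 over all genes. Hoxb9 stood at 130, 133.3 and 138.7 CPM in the vGat sets of 17, 18 and 24 days and at 180.96, 238.6 and 292.95 CPM in wild type (lowest, median, highest). The groups did not overlap, and the log2 difference was -0.89 (SE 0.17, edgeR adjusted p = 0.000445). Of the members called here, it was the 1 that kept its call under each alternative and with each set left out (adjusted p at most 0.00670).

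Hoxb8 stood at 167.2, 204.9 and 150 CPM in the vGat sets and 198.1, 260.8 and 300 CPM in wild type, overlapping in the 18-day vGat set alone (log2 difference -0.62, SE 0.17, edgeR adjusted p = 0.00884). Without the 17-day or the 24-day vGat set the call ended (adjusted p = 0.0599 and 0.0737). Hoxc6, a forelimb-level gene with few counts, stood at 5.14, 4.60 and 2.20 CPM against 0, 14.6 and 38.9 CPM, overlapping with wild type through the 21-day set alone, which had 0 counts. Its log2 difference was -2.14 (SE 0.62, edgeR adjusted p = 0.0151), and the call ended without the vGat set of 17, 18 or 24 days (adjusted p = 0.0524, 0.0618 and 0.0858). Hoxc6 passed the count filter through wild-type sets. It stood at 25.7 to 38.9 CPM in those of 26 and 27 days and the one labelled female. Of the 10 fits that left out 1 set, Hoxc6 passed the filter in 6, so its call could not be checked in the others. Hoxa5, the neck-level gene, stood at 41.1, 34.9 and 44.8 CPM against 37.0, 64.04 and 127.4 CPM (-0.81, SE 0.27, edgeR adjusted p = 0.0334), and its call ended without any 1 of the vGat sets or without the wild-type set labelled female (adjusted p from 0.0662 to 0.166). These vGat values lie at the lower end of the wild-type range.

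Hoxa7 stood at 182.1, 191.1 and 240 CPM in the vGat sets and 89.8, 138.1 and 192.3 CPM in wild type, so that 2 of the 3 vGat sets lay within the wild-type range. The log2 difference was 0.54 (SE 0.19, edgeR adjusted p = 0.0415). It was not called in 7 of the 10 fits that left out 1 set: those without the vGat set of 17, 18 or 24 days, or without the wild-type set of 20, 26 or 27 days or the one labelled female (adjusted p from 0.0650 to 0.267). Hoxb7, its group 7 partner, was not called (0.55, SE 0.22, edgeR adjusted p = 0.0799).

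Excitatory cells of the vGlut2 line (4 sets) were compared with excitatory wild-type cells (9 sets). Of 15 members tested 2 were higher and 2 lower in the vGlut2 line, against 15.4% of all 7163 genes called (5.08% higher, 10.4% lower). The median log2 difference was -0.17 over the members and 0.00 over all genes. This comparison and the vGat one use cells of the same wild-type sets, so their results are not independent of each other. Hoxb7 stood at 177.1, 210, 182.02 and 128.9 CPM in the vGlut2 sets of 23, 24, 25 and 26 days and at 57.2, 79.9 and 138.7 CPM in wild type, where only the 26-day set overlapped. The log2 difference was 1.09 (SE 0.21, edgeR adjusted p = 0.00100). Hoxa7 stood at 284.2, 191.4, 270 and 138.1 CPM against 107.8, 137.3 and 183.1 CPM, again with overlap in the 26-day set (0.67, SE 0.19, edgeR adjusted p = 0.0168).

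Hoxb9 stood at 94.002, 86.1, 110.9 and 92.1 CPM in the vGlut2 sets and at 138.9, 196.02 and 327.3 CPM in wild type, with no overlap. Its log2 difference was -1.01 (SE 0.21, edgeR adjusted p = 0.00210). Hoxc8 stood at 56.8, 66.98, 56.8 and 36.8 CPM against 53.9, 96.5 and 195.2 CPM, with overlapping groups (-0.99, SE 0.29, edgeR adjusted p = 0.0204). Hoxa10 was not called (-0.88, SE 0.32, edgeR adjusted p = 0.0699) except without the wild-type set of 19 or 21 days (0.0482 and 0.0469), nor was Hoxc10 (-0.42, edgeR adjusted p = 0.352). Without the 26-day vGlut2 set the same 4 members were called, with log2 differences of 1.15 for Hoxb7, 0.78 for Hoxa7, -1.01 for Hoxb9 and -0.94 for Hoxc8. Without the 23-day or the 25-day vGlut2 set Hoxa7 (edgeR adjusted p = 0.134 and 0.170) and Hoxc8 (0.0723 and 0.108) lost their calls.

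Type composition and oligodendrocyte RNA moved with these results. Glut12 to Glut15 made up 25.2% of wild-type excitatory cells (exact binomial interval 21.0 to 29.7%) and 7.40% of vGlut2 excitatory cells (27 cells, 4.93 to 10.6%). Without those types, again chosen after the data were seen, Hoxb7 (1.08, edgeR adjusted p = 0.00174) and Hoxb9 (-1.08, edgeR adjusted p = 0.00109) kept their calls in the vGlut2 line. Hoxa7 (0.50, edgeR adjusted p = 0.0917) and Hoxc8 (-0.71, edgeR adjusted p = 0.166) did not. In most sets Hoxc8 was higher and Hoxa7 lower in the types left out, and whether this accounts for the lost calls was not tested. Oligodendrocyte marker RNA was lower in each vGat set, and in the vGlut2 sets other than the 26-day one, than in any wild-type set. Its part in the Hox results was not tested. In the 26-day vGlut2 set that RNA was at the wild-type level. There Hoxb9 (92.1 CPM) and Hoxc8 (36.8 CPM) lay below each wild-type set, while Hoxa7 (138.1 CPM) and Hoxb7 (128.9 CPM) lay within the wild-type range. These levels rest on few counts, from 12 excitatory cells with 108605 UMIs. All members of groups 7, 8 and 9 together gave 29, 24 and 14 counts in them. Whether the levels of this set differ from wild type beyond counting error was not tested.

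**Figure D5:**
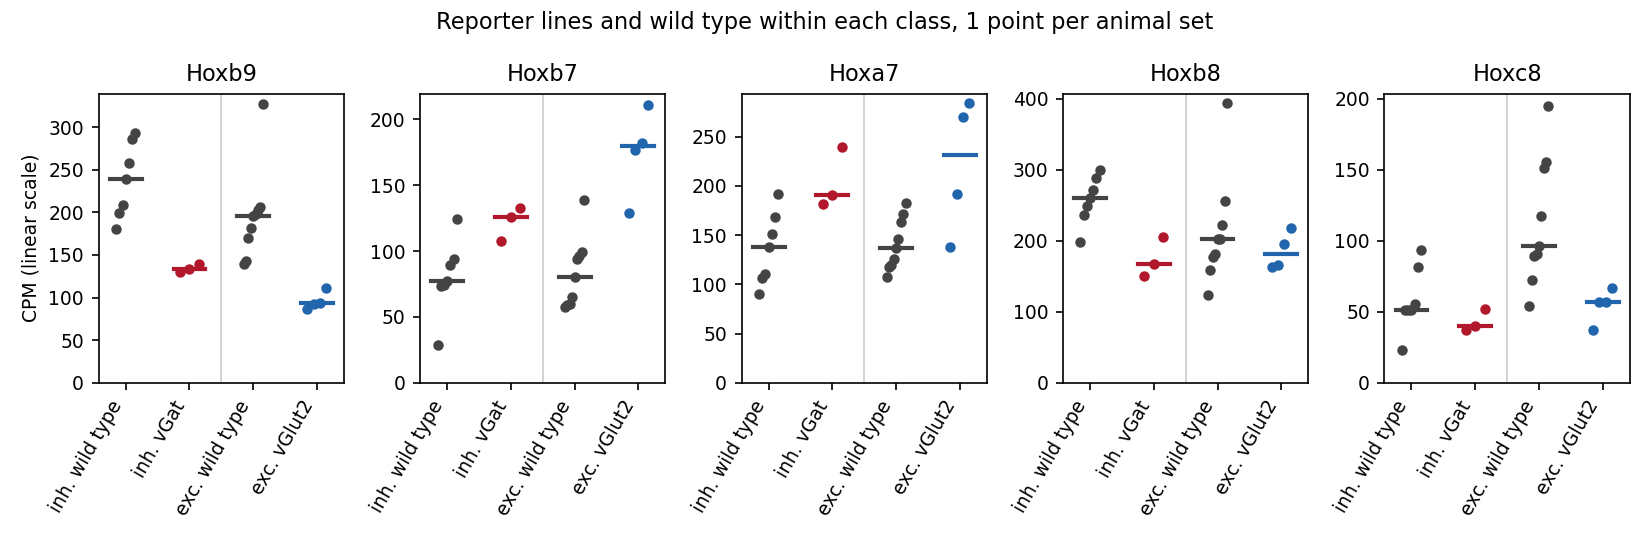
Levels in CPM (linear axes) of Hox genes in inhibitory cells (wild type and vGat) and excitatory cells (wild type and vGlut2), 1 point per animal set. Hoxb9 does not overlap between a line and wild type in either class (130 to 138.7 against 180.96 to 292.95 CPM, and 86.1 to 110.9 against 138.9 to 327.3 CPM).

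The vGat and vGlut2 lines were also compared directly (3 against 4 sets). Of 23 members tested 2 were called, both lower in the vGat line, against 8.85% of all 10598 genes called (4.53% lower and 4.32% higher). Hoxc10 stood at 15.4, 20.3 and 25.7 CPM in the vGat sets and at 39.1, 28.7, 40.9 and 25.1 CPM in the vGlut2 sets, overlapping narrowly (log2 difference -0.93, SE 0.27, edgeR adjusted p = 0.0402). Hoxa4, a gene of the neck levels with few counts, stood at 4.55, 5.75 and 4.40 CPM against 17.4, 28.7, 11.2 and 6.29 CPM, with no overlap (-1.43, SE 0.43, edgeR adjusted p = 0.0488). Hoxb9 did not overlap either but was not called (0.40, SE 0.18, edgeR adjusted p = 0.228). Without the 26-day vGlut2 set Hoxc10 stood at -0.98 (edgeR adjusted p = 0.00941), Hoxa4 at -1.47 (edgeR adjusted p = 0.0194), and 4 members were called lower. The share of all genes called in that fit was not kept. Both calls ended with DESeq2 (adjusted p = 0.170 and 0.107) and with age as a covariate (adjusted p = 0.629 and 0.307). Hoxc10 was not called without the vGat set of 17 or 18 days or the vGlut2 set of 23 or 25 days (adjusted p from 0.119 to 0.303), and Hoxa4 was not called without any 1 of the vGat sets (adjusted p from 0.157 to 0.179).

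Age within wild type gave no called member (0). Slopes per day were fitted in sets labelled male, 6 with inhibitory cells (18 to 27 days) and 8 with excitatory cells (18 to 28 days), and these labels go against Xist in most of the sets. Of 13 and 16 members tested 0 were called by edgeR's quasi-likelihood test, against 0.0472% of 6352 and 0.0269% of 7424 genes, and 0 by DESeq2. At an unadjusted p under 0.05 there were 3 in each class. These were Hoxa7 (-0.08 log2 per day), Hoxb3 (0.10) and Hoxc8 (0.11) in inhibitory cells and Hoxb3 (0.08), Hoxb5 (0.07) and Hoxb9 (0.07) in excitatory cells.

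Spread between capture runs of a line, a unit read from the cell titles, was set beside that of all genes. Over 28 wild-type runs with at least 10 cells, leaving out cells with conflicting class labels, the median ratio of a gene's dispersion to the trend at its level was 1.03 for the 3 members fitted and 0.787 for all 1666 genes. Over 8 vGat runs it was 1.00 (13 members) against 0.867 and over 7 vGlut2 runs 0.698 (17 members) against 0.780. Hoxb9 ran from 114.2 to 157.2 CPM over the 8 vGat runs, from 86.1 to 133.8 CPM over the 7 vGlut2 runs and from 89.6 to 420 CPM over the 31 wild-type runs that reach 10 cells with those cells included, so single wild-type runs lay within the range of the lines.

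Hox proteins bind DNA together with TALE homeodomain cofactors, of which Meis1 and Meis2 were lower in wild-type inhibitory cells. Of 9 TALE genes 7 were tested between the wild-type classes, of which 2 were lower in inhibitory cells and 0 higher (median log2 difference -0.11, all genes -0.01). Meis1 stood at 25.5, 41.2 and 55.5 CPM in excitatory and 0, 14.2 and 22.0 CPM in inhibitory cells, with no overlap (-1.80, SE 0.35, edgeR adjusted p = 0.00197). The log2 difference of Meis2 was -2.06 (SE 0.59, edgeR adjusted p = 0.0438). Its call ended without the set of 18, 20, 21, 26 or 27 days (edgeR adjusted p from 0.0528 to 0.201) and with DESeq2 (0.0715). Between the lines 9 were tested and 2 were lower in vGat: Meis1, at 3.41 to 4.40 CPM against 28.7 to 57.8 CPM (-3.66, SE 0.33, edgeR adjusted p = 2.64e-06), and Pbx3 (-2.02, edgeR adjusted p = 0.0389). The Pbx3 call ended without any 1 of the vGat sets (edgeR adjusted p from 0.0954 to 0.186) and with age as a covariate (0.381). Of the 7 fits that left out 1 set, Pbx3 passed the count filter in 4. Against wild type Pbx2 was the 1 of 5 called in vGat inhibitory cells (-1.21, edgeR adjusted p = 0.00249), and 0 of 6 were called in vGlut2 excitatory cells. Of all genes tested, 5.63% were called between the classes and 8.85% between the lines. Against wild type the shares were 21.3% in vGat inhibitory and 15.4% in vGlut2 excitatory cells. Pbx4 stood at 46.9 CPM over all cells.

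Polycomb genes, which keep silent Hox genes closed, gave 0 calls among 13 tested between the wild-type classes. In vGat inhibitory cells 3 of 13 were lower than in wild type and 0 higher, among them Pcgf2 (-1.27, edgeR adjusted p = 0.0168) and Phc2 (-0.78, edgeR adjusted p = 0.0354). Without any 1 of the vGat sets neither was called (edgeR adjusted p from 0.0531 to 0.0732 for Pcgf2 and from 0.0653 to 0.158 for Phc2). Phc2 was also not called without the wild-type set of 19, 20 or 21 days (from 0.0526 to 0.0754) or without a count filter (0.0755). In vGlut2 excitatory cells 1 of 12 was lower, Phc1 (-1.11, edgeR adjusted p = 0.00802), which was not called without the 23-day vGlut2 set (0.0699). Between the lines 1 of 19 was higher in vGat, Rnf2 (0.97, edgeR adjusted p = 0.0333). Its call ended without any 1 of the vGat sets or the 24-day vGlut2 set (edgeR adjusted p from 0.0635 to 0.162), without the 25-day vGlut2 set (0.48, adjusted p = 0.453), with DESeq2 (0.151) and with age as a covariate (0.326). Trithorax and H3K27 demethylase genes, which keep Hox genes open, gave 1 of 8 lower in vGat (Kmt2d, -1.31, edgeR adjusted p = 0.00367), 1 of 8 lower in vGlut2 (Kdm6b, -0.96, edgeR adjusted p = 0.0286), 0 of 8 between the classes and 0 of 9 between the lines. Kdm6b was not called without the vGlut2 set of 23 or 25 days, the wild-type set of 27 days or a count filter (edgeR adjusted p from 0.0516 to 0.132). These counts stand beside 21.3% and 15.4% of all genes called in vGat and vGlut2 cells against wild type, 5.63% between the classes and 8.85% between the lines. Of the retinoid receptors, which carry the early signal that induces Hox genes, Rxrg was lower in vGat than in vGlut2 (1 of 3 tested; -2.71, edgeR adjusted p = 0.000782; 0.103 with age as a covariate), and 1 was tested and 0 called in each other comparison. The caudal factors that start trunk Hox expression in the embryo had 5 (Cdx2), 1 (Cdx1) and 0 (Cdx4) counts. The most abundant of these lists over all cells were Cbx6 (193.8 CPM) and Phc3 (59.99 CPM), Kmt2a (173.5 CPM) and Kmt2d (37.4 CPM), and Rxrb (32.05 CPM) and Rxra (14.7 CPM). Mira was not called in any comparison of classes or lines, with log2 differences from -0.53 to 0.15.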

How the data were processed

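The deposited values are raw whole-number UMI counts, 1 column per cell, and each cell's sum equalled the total of molecules in its label in 1545 of 1545 cells. Cell Ranger and the build mm10 are named in the submitters' processing notes, and the sources used here give no other step. The protocol text names a droplet kit, while each cell title gives a capture run and a well. Which of these describes the capture of the cells was not settled, and the titles were used. The median cell held 7030 to 10413 UMIs in the lines. Classes and types are the authors' labels, and 18 cells with conflicting class labels stayed outside both classes. The sources used here do not say how doublets were treated, and no cell was removed.

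Counts were summed per animal set and class and tested with edgeR 4.0.16 (R 4.3.3) over all genes: quasi-likelihood test, TMM factors, filterByExpr, Benjamini-Hochberg adjustment at 0.05, sets of at least 10 cells. Both classes come from the same animal sets, so the set was a block there. All cells of the vGat and vGlut2 lines entered their direct comparison. CPM are counts per 1000000 of the same cells. Alternatives were DESeq2 1.42.0, RLE size factors, no filter, each set left out, age as a covariate and others. Intervals cover counting error only. The members and lists were chosen with earlier results of these data known. Each named member follows a rule that took those above 5 CPM or called in a comparison, and genes outside Hox come only from lists of cofactors and regulators. A few genes that enter the counts and sums are not reported here by name. Scripts were tested on simulated counts.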

Additional observations from a re-analysis of the deposited data

Results flagged for a closer look

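Among 75 groups of sets checked, 14 had a highest or lowest set far from the rest, where chance flags about 1 in 20. In wild type (9 sets) the 28-day set, with 27 cells, was highest for Hoxb5 (134.001 CPM), Hoxb7 (142.6 CPM), Hoxb8 (341.5 CPM), group 7 (298.3 CPM) and group 8 (497.1 CPM), measures that share genes. The 22-day set labelled female, with 55 cells, was highest for Hoxa5 (132.9 CPM), Hoxc6 (44.9 CPM) and Hoxd4 (29.3 CPM). The 27-day set was highest for Hoxd8 (20.8 CPM). Group 12 was highest in the 26-day set (3.68 CPM, 2 counts) and group 13 in the 18-day set (14.9 CPM, 8 counts). In the vGlut2 line (4 sets) the 24-day set was lowest for group 2 (19.1 CPM, 2 counts), and the 26-day set was highest for group 13 (6.29 CPM, 1 count) and lowest for all members together (1062 CPM).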

How the results depend on the processing

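Values under alternatives were followed for members and listed genes called in a comparison, and for a few uncalled members named above. Among these 0 reversed direction, 91 lost a call and 8 gained one. Other uncalled members were not followed in this way. Members called between the wild-type classes were 2 lower and 0 higher. The number lower was 1 with DESeq2, 1 in the fit without the animal set as a replicate block, 0 with capture runs as the unit, 3 without a count filter, 3 with sets of 5 cells per class, and 1 to 2 with a set left out. It was also 0 without Glut12 to Glut15, which were picked for high group 10, so that this fit is no independent check. The number higher was 1 with capture runs as the unit and 0 to 1 with a set left out. Between the reporter lines the 2 lower became 0 with DESeq2, 1 without a count filter, 0 with age as a covariate, and 0 to 4 with a set left out. For vGat against wild type the 1 higher became 0 with DESeq2, 0 with RLE factors, 2 without a filter, 0 with age, and 0 to 1 with a set left out, while the 4 lower became 2 with age, 5 without a filter and 1 to 6 with a set left out. For vGlut2 against wild type the 2 higher became 1 without Glut12 to Glut15 and 1 to 2 with a set left out, and the 2 lower became 1 and 1 to 3, and 3 without a filter. The share of all genes called was kept for the main fits only, so the counts of members under alternatives have no such share beside them. Where calls changed, the cause was not tested. Age gave 0 in each alternative. Shares of cells with a UMI rise with the depth kept: group 10 had 35.1% at 6000 UMIs against 21.7% at 3000. Depth limits members under 5 CPM, of which none passed the filter between the classes (0).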
